A study of Mus musculus with 6 samples.

Results

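The 10 genes described here encode the mitochondrial chaperones and proteases whose transcripts are the usual readout of the mitochondrial unfolded protein response. They were chosen by name as members of this pathway, with earlier results of these data known, and are 10 of the 55291 genes listed. The chaperones were Hspd1, Hspe1, Hspa9, Trap1 and Dnaja3, and the proteases and their partners were Lonp1, Clpp, Clpx, Htra2 and Afg3l2. All 10 passed the filter on low counts and were among the 14290 genes tested.

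RNA-seq was performed on wild-type (WT) mouse embryonic fibroblasts (MEFs) treated with vehicle, with MASM7 at 1 μM for 6 h, or with MFI8 at 20 μM for 6 h. MASM7 was developed as an activator and MFI8 as an inhibitor of the mitofusins, the outer membrane GTPases that fuse mitochondria, and the question here was whether either compound was accompanied by a different level of these transcripts. Each group had 2 libraries, which the series' design text calls independent biological replicates. Doses and time are those that a figure legend of the study gives for its RNA-seq panel, with no duration given for vehicle. The MEFs came from a single source laboratory, so the libraries represent 1 cell line, and since the compounds were given at different concentrations, compound and concentration cannot be told apart.

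Mitochondria import nearly all of their proteins unfolded, and chaperones of the matrix fold them while proteases of the matrix and inner membrane clear those that misfold or lack a partner. When misfolded protein builds up, a signal to the nucleus raises transcription of the genes for these chaperones and proteases, and in mammalian cells the transcription factors ATF4, ATF5 and CHOP (encoded by Ddit3) have been tied to it. In mammalian cells it has classically been followed through HSP60, HSP10 and ClpP, the products of Hspd1, Hspe1 and Clpp.

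The libraries held 22791792 to 30677751 counts and TMM factors lay between 0.991 and 1.01. The share of counts on genes of the mitochondrial genome was 1.66% and 1.82% in the vehicle libraries, 1.61% and 1.51% after MASM7, and 1.37% and 1.43% after MFI8, with no overlap between the groups. The part of this difference in the results below was not tested. The fibroblast genes Col1a1 (1106 to 1435 TPM) and Vim (1966 to 2531 TPM) were high in every library, Thy1 (0.283 to 0.751 TPM) and Lum (0.048 to 0.194 TPM) were near 0, while among markers of other cell types Adgre1, Myod1, Myog, Sox10 and Kdr were listed at 0 throughout, Epcam, Cdh1, Krt8, Krt18, Pecam1, Cdh5, Ptprc and Des stayed under 1 TPM, and Cd68 (8.91 to 11.9 TPM), Tubb3 (47.1 to 68.4 TPM) and Map2 (4.18 to 5.83 TPM) were expressed in every library. Tubb3 was lower in both vehicle libraries (47.1 and 49.6 TPM) than in the 4 treated ones (61.6 to 68.4 TPM). In such bulk samples, fewer cells with a transcript and less of it per cell cannot be told apart. No gene of the 14290 had an adjusted p under 0.05 in any of the 3 comparisons by edgeR's quasi-likelihood F test, although 1409 genes had an unadjusted p under 0.05 for MFI8 against vehicle, 1458 for MASM7 against vehicle and 1026 for MFI8 against MASM7. At the same adjusted threshold DESeq2 called 49, 2 and 29 genes in these comparisons (0.183%, 0.00747% and 0.108% of the genes it fitted) and limma on TPM called 0 in each, and none of the genes called by DESeq2 was among the 10. Equally numbered libraries deviated together in all 3 groups, and with the replicate number as a block edgeR called 720 genes (5.04%) for MFI8 against vehicle, 554 (3.88%) for MASM7 against vehicle and 439 (3.07%) for MFI8 against MASM7. Adjusted p-values below come from the fit without the block unless the block is named, and the blocked value is given where it changes a call.

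Hspd1 and Hspe1 form a head-to-head gene pair on chromosome 1, Hspd1 on the minus strand at 55077835 to 55088243 and Hspe1 on the plus strand at 55088132 to 55091307 (GRCm38, GENCODE vM21). Their annotated ends overlap by 112 bases, and the RefSeq start sites at 55087932 for Hspd1 and 55088148 for Hspe1 leave 215 bases between them. RefSeq lists a further Hspd1 start at 55088243, beyond the Hspe1 start, and the window of that start held no match to the motifs below. Windows from 250 bases before to 50 bases after each RefSeq start site were searched on both strands for 3 alternating TTC and GAA units spaced by 2 bases (a heat shock element), TGCAAT (a core of sites bound by C/EBP factors and CHOP), TTGCATCA (an amino acid response element) and TGACGTNA (a cAMP response element). The table of windows held 7 of the 10 genes, in 8 windows of 32851 in all, and its entries did not include Hspa9, Htra2 or Afg3l2. The stretch between the Hspd1 and Hspe1 start sites held 2 overlapping heat shock elements and 1 TGCAAT, and both sites are shown because they lie in the windows of both genes. Both also lie within an annotated exon of Hspd1. Capitals mark the matches.

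Heat shock elements between Hspd1 and Hspe1, chr1:55088053-55088082, plus strand, GRCm38.p6: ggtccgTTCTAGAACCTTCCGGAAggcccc

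TGCAAT between Hspd1 and Hspe1, chr1:55087937-55087966, plus strand, GRCm38.p6: acgccggggcccTGCAATctgcatgcggcg

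A heat shock element was present in 0.603% of all windows and TGCAAT in 8.4%. Among the other windows of the 10 genes, TGACGTNA, present in 2.93% of all windows, matched once in that of Trap1 and once in that of Lonp1. TTGCATCA, present in 0.895% of all windows, matched in none of the 8. Dnaja3, Clpp and Clpx held no match to any of the 4 motifs. The bases before the start sites of Lonp1 and Clpp, both on chromosome 17, are shown because these genes had the highest fitted differences of the 10 against vehicle for MFI8 and MASM7, respectively. In the Lonp1 sequence the match ends at the first transcribed base, in capitals, and the Clpp sequence holds none.

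Lonp1, chr17:56626903-56627153, minus strand, GRCm38.p6: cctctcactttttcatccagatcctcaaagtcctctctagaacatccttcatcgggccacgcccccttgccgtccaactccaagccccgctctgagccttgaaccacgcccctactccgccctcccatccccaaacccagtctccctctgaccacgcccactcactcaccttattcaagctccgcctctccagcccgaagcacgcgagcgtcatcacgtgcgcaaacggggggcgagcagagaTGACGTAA

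Clpp, chr17:56990014-56990264, plus strand, GRCm38.p6: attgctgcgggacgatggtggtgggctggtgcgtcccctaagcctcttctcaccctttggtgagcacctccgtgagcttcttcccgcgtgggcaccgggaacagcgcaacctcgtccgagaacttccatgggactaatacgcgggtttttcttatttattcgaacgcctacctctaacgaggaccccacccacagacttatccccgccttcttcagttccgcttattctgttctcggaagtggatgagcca

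These matches are letters in a window, and no binding was measured in these cells. Of the remaining members, Trap1 and Dnaja3 lie on chromosome 16 (4039971 to 4077827, minus strand, and 4639989 to 4707695, plus strand), Clpx on chromosome 9 (65294260 to 65330658, plus strand), Htra2 on chromosome 6, and Hspa9 and Afg3l2 on chromosome 18. All 10 are annotated as protein coding, with 4 exons in the longest coding transcript of Hspe1 and 18 in those of Trap1 and Lonp1.

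In vehicle-treated MEFs, Hspd1, Hspa9, Hspe1 and Trap1 had higher TPM than any of the proteases, while the chaperone Dnaja3 lay below Clpp, Htra2 and Lonp1. For these genes TPM followed counts divided by the exonic length, which joins the exons of all transcripts. The exonic length and the longest coding transcript were 9874 and 3094 bases for Afg3l2, 2946 and 1725 for Htra2 and 1474 and 774 for Hspe1. The order by the length of that transcript was not computed and may differ. On the TPM scale the vehicle means were 1469.9 for Hspd1, 1339 for Hspa9, 637 for Hspe1, 229.6 for Trap1, 155 for Clpp, 149 for Htra2, 117 for Lonp1, 91.9 for Dnaja3, 80.9 for Clpx and 53.4 for Afg3l2. Hspd1 ranked between 52 and 67 of all genes listed by TPM in the 6 libraries and Hspa9 between 62 and 71, whereas Afg3l2 ranked between 3649 and 4001. The order of the 10 genes was the same in every library except that Htra2 (148 TPM) stood above Clpp (144 TPM) in the second vehicle library. Hspd1 (1360.0 to 1553 TPM over the 6 libraries) and Hspa9 (1261 to 1418 TPM) overlapped in range, as did Clpp (144 to 181 TPM) and Htra2 (148 to 168 TPM), while the other neighbours in this order did not.

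**Figure D1:**
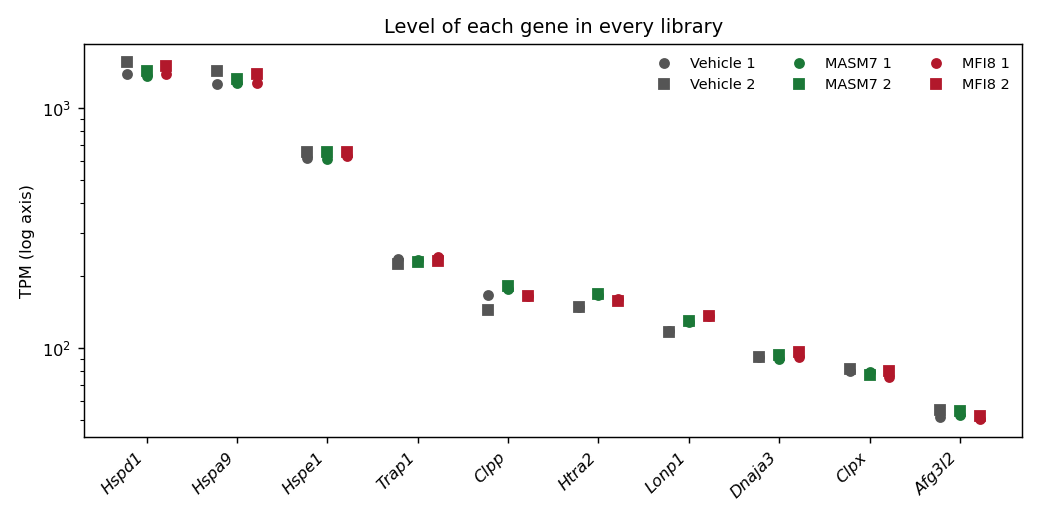
TPM of each of the 10 genes in each of the 6 libraries on a logarithmic axis, with circles for replicate 1 and squares for replicate 2 of vehicle, MASM7 and MFI8. Hspd1 and Hspa9 lie highest and Afg3l2 lowest, at 50.5 to 55.4 TPM, in every library.

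Levels of partner genes were also set side by side as ratios, whose size depends on the same exonic lengths. HSP60, the barrel-shaped chaperone encoded by Hspd1, works with HSP10, the lid encoded by Hspe1, and the ratio of Hspd1 to Hspe1 in TPM was 2.24 and 2.38 with vehicle, 2.23 and 2.17 after MASM7 and 2.20 and 2.29 after MFI8. Mitochondrial HSP70, encoded by Hspa9, takes its substrates partly from the J-domain protein encoded by Dnaja3, and the ratio of Hspa9 to Dnaja3 in TPM was between 13.8 and 15.4. ClpX, the unfoldase, feeds substrates to the ClpP protease, and the ratio of Clpx to Clpp in TPM was 0.483 and 0.569 with vehicle, 0.451 and 0.426 after MASM7 and 0.460 and 0.490 after MFI8. The MASM7 libraries had the lowest Clpx to Clpp ratios, and the ratios with vehicle and MFI8 overlapped.

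The 10 genes together took 0.365% to 0.397% of the counts of a library. Summed over the 5 chaperones, the level was 3594 and 3941 TPM with vehicle, 3563 and 3712 TPM after MASM7 and 3611 and 3857 TPM after MFI8, so the groups overlapped. The 5 proteases and partners summed to 564 and 546 TPM with vehicle, 602 and 609 TPM after MASM7 and 587 and 589.7 TPM after MFI8. Both compounds were thus above vehicle in the protease sum and neither was in the chaperone sum, a description on which no test was run. Clpp, Htra2 and Lonp1 are the most GC-rich of the 10, and differences against vehicle rose with GC content over all genes, as given below. The part of GC content in these sums was not tested.

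None of the 5 chaperones passed the adjusted threshold against vehicle with either compound, without or with the replicate block, and the groups overlapped for each of them. The level of Hspd1 was 1043 and 1153 CPM (counts scaled to a common library size) with vehicle, 1026 and 1079 after MASM7 and 1015 and 1099.97 after MFI8. In each group the second library was the higher, and the gap within a group exceeded the difference between the group means. Set against the vehicle library of the same number, each treated library was lower. With the replicate block the log2 differences were -0.054 for MFI8 (adjusted p = 0.550 by edgeR) and -0.060 for MASM7 (adjusted p = 0.456 by edgeR) against vehicle. The fitted difference of Hspd1 was -0.054 on the log2 scale for MFI8 against vehicle (SE 0.063; 95% interval -12.7% to 6.19%) and -0.062 for MASM7 against vehicle (SE 0.063; 95% interval -13.1% to 5.65%).

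Hspe1 measured 260.1 and 271 CPM with vehicle, 257 and 277 after MASM7 and 258 and 268 after MFI8. Here, too, the second library was the higher in each group. Its fitted log2 differences were -0.013 for MFI8 (95% interval -9.20% to 8.13%) and 0.0072 for MASM7 (95% interval -7.89% to 9.66%) against vehicle. Rows for their pseudogenes and related sequences took reads equal to 0.579% to 0.689% of the Hspd1 counts (5 rows) and 1.57% to 2.35% of the Hspe1 counts (7 rows), and how reads were divided between near-identical copies is not given in the sources used here.

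Hspa9, which pulls precursors through the import channel and folds them in the matrix, was the most highly counted of the 10, with 1547 and 1718 CPM with vehicle, 1561 and 1623 after MASM7 and 1517 and 1647 after MFI8. Its fitted log2 differences against vehicle were -0.046 for MFI8 (95% interval -12.1% to 6.77%) and -0.036 for MASM7 (95% interval -11.5% to 7.45%). Trap1, the mitochondrial member of the HSP90 family, was at 172 and 162 CPM with vehicle, 172 and 168 after MASM7 and 172 and 165 after MFI8. In contrast to Hspd1, Hspe1 and Hspa9, the first library was the higher in each group for Trap1, and its fitted log2 differences were 0.0077 for MFI8 (95% interval -7.63% to 9.42%) and 0.024 for MASM7 (95% interval -6.57% to 10.6%). Dnaja3 lay between 99.4 and 105 CPM in all 6 libraries, with fitted log2 differences of 0.0040 for MFI8 (95% interval -7.95% to 9.24%) and 0.015 for MASM7 (95% interval -7.24% to 10.01%). The exons of Dnaja3 overlap those of Coro7 and Vasn over 3.91% and 4.09% of their length. Among the chaperones, the adjusted p against vehicle was lowest for Hspd1 with MASM7, at 0.744 by edgeR.

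**Figure D2:**
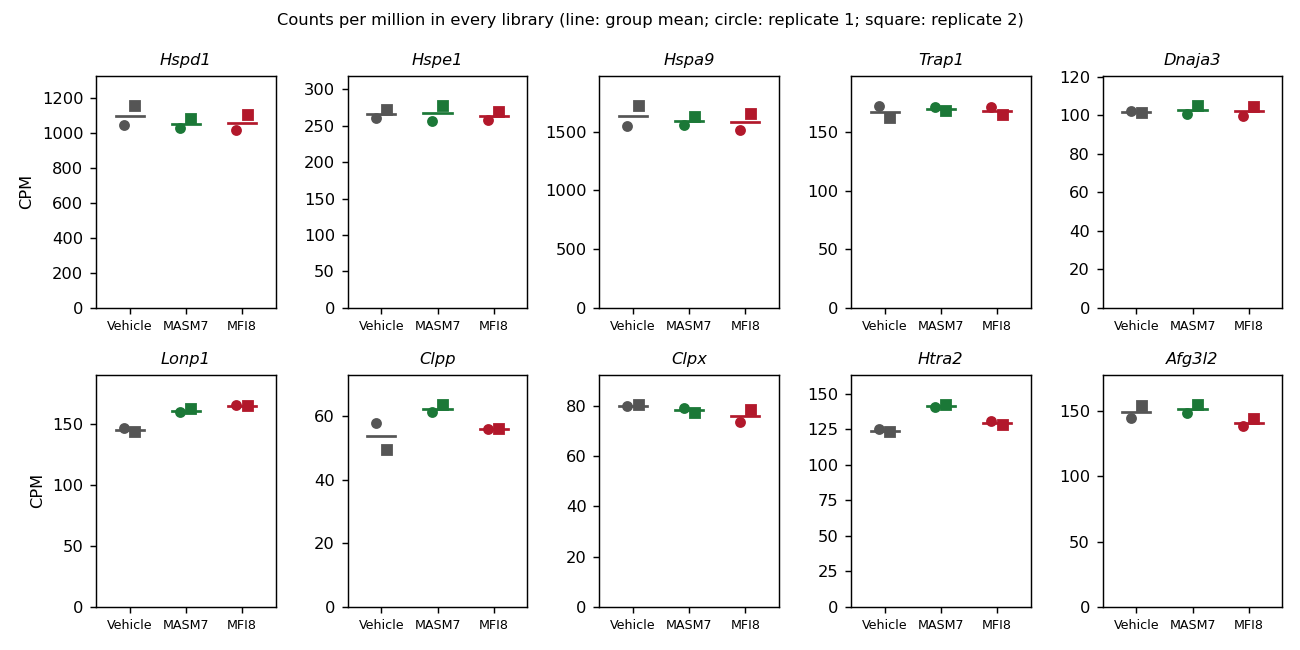
CPM of each gene in every library by group, on linear axes that start at 0, with lines at the group means, circles for replicate 1 and squares for replicate 2. Lonp1 and Htra2 lie above both vehicle libraries in all 4 treated libraries, and the 5 chaperones in the upper row overlap between the groups.

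By edgeR on all 6 libraries, without the offsets described below, Lonp1 was the member that differed most from vehicle with MFI8. It encodes LON, an ATP-dependent protease that degrades oxidized and misfolded proteins of the matrix, and lies on chromosome 17 at 56614297 to 56626887, minus strand. Its level was 147 and 144 CPM with vehicle, 160.1 and 162 after MASM7 and 165 and 165 after MFI8. Every treated library was above both vehicle libraries, and both MFI8 libraries were above both MASM7 libraries. The difference was 13.7% for MFI8 against vehicle (log2 difference 0.18, SE 0.0497, 95% interval 5.24% to 22.8%, unadjusted p = 0.0041, adjusted p = 0.349 by edgeR) and 10.9% for MASM7 against vehicle (log2 difference 0.15, SE 0.0496, 95% interval 2.69% to 19.7%, unadjusted p = 0.0134, adjusted p = 0.473 by edgeR). These comparisons share the vehicle libraries, and neither passed the adjusted threshold. With the replicate block, Lonp1 passed it for MFI8 (log2 difference 0.18, SE 0.0451, adjusted p = 0.0144 by edgeR, higher in 2 of 2 libraries). Once the block was joined by offsets for transcript GC content and length, it did not (0.095, adjusted p = 0.110 by edgeR), and Afg3l2 differed more (-0.13). By unadjusted p, Lonp1 ranked 167 of 14290 genes for MFI8 and 400 for MASM7.

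Htra2 and Clpp were higher in both MASM7 libraries than in the other 4. Htra2 encodes HTRA2/OMI, a serine protease of the intermembrane space, at 83051266 to 83055273 on the minus strand of chromosome 6. It measured 125 and 123 CPM with vehicle, 141 and 142 after MASM7 and 131 and 128 after MFI8. The 3 groups did not overlap, with vehicle lowest and MASM7 highest. The difference was 14.1% for MASM7 against vehicle (log2 difference 0.19, SE 0.0506, 95% interval 5.47% to 23.3%, unadjusted p = 0.00387, adjusted p = 0.466 by edgeR, or 0.021 with the replicate block) and 4.55% for MFI8 against vehicle (95% interval -3.36% to 13.1%, adjusted p = 0.701 by edgeR). MFI8 against MASM7 gave -8.34% (95% interval -15.2% to -0.904%, unadjusted p = 0.0322, adjusted p = 0.650 by edgeR). Htra2 was not called for MASM7 against vehicle with the offsets and the block (0.091, adjusted p = 0.228 by edgeR). In that fit its log2 difference for MFI8 against vehicle turned to -0.0035.

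The exons of Htra2 overlap those of 2 genes on the opposite strand, Aup1 over 753 bases (25.6% of the Htra2 exonic length) and Loxl3 over 535 bases (18.2%). The strand setting used in counting is not given in the sources used here, so reads in these stretches cannot be assigned to 1 strand. Aup1, which encodes a lipid droplet and ER protein, had fitted log2 differences of 0.11 for MASM7 and 0.050 for MFI8 against vehicle, and Loxl3, a lysyl oxidase, 0.17 and -0.095. None of these 4 differences had an unadjusted p under 0.05, and their part in the Htra2 values was not tested.

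Clpp encodes the proteolytic chamber of the ClpXP complex and lies on chromosome 17 at 56990305 to 56996188, plus strand. It was at 57.8 and 49.4 CPM with vehicle, 61.2 and 63.4 after MASM7 and 55.9 and 55.9 after MFI8. Both MASM7 libraries were above the other 4, and the MFI8 libraries lay within the range of vehicle. The difference was 16.4% for MASM7 against vehicle (log2 difference 0.22, SE 0.0773, 95% interval 3.25% to 31.1%, unadjusted p = 0.0181, adjusted p = 0.473 by edgeR, or 0.0437 with the replicate block), 4.38% for MFI8 against vehicle (95% interval -7.48% to 17.8%, adjusted p = 0.831 by edgeR) and -10.3% for MFI8 against MASM7 (95% interval -20.3% to 1.01%, adjusted p = 0.704 by edgeR). The MASM7 difference of Clpp with the offsets and the block was 0.14 and not called (adjusted p = 0.224 by edgeR). The vehicle libraries were farther apart for Clpp than those of either compound. Without the second vehicle library, at 49.4 CPM, the fitted log2 difference for MASM7 was 0.11, and without the first it was 0.34.

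Clpx with both compounds and Afg3l2 with MFI8 were lower than with vehicle, and neither passed the adjusted threshold without or with the replicate block. With offsets for GC content and length added to the block, Afg3l2 did for MFI8 against vehicle (-0.13, adjusted p = 0.035 by edgeR) and against MASM7 (-0.11, adjusted p = 0.0411 by edgeR). Clpx, the unfoldase partner of ClpP on chromosome 9, was at 79.8 and 80.2 CPM with vehicle, 79.0 and 77.2 after MASM7 and 73.5 and 78.3 after MFI8. All 4 treated libraries were below both vehicle libraries, with fitted differences of -5.09% for MFI8 (95% interval -13.2% to 3.82%, adjusted p = 0.691 by edgeR) and -2.38% for MASM7 (95% interval -10.7% to 6.73%, adjusted p = 0.847 by edgeR). Clpx has the most GC-poor transcript of the 10, and with the offsets its MASM7 difference turned from -0.035 to 0.037 on the log2 scale, without or with the block, while that for MFI8 stayed negative. Afg3l2, a subunit of the m-AAA protease of the inner membrane, was at 145 and 154 CPM with vehicle, 148 and 155 after MASM7 and 139 and 144 after MFI8. Both MFI8 libraries were below the other 4. The difference was -5.47% for MFI8 against vehicle (95% interval -13.3% to 3.07%, adjusted p = 0.652 by edgeR) and -6.74% for MFI8 against MASM7 (95% interval -14.4% to 1.64%, adjusted p = 0.726 by edgeR). For MASM7 against vehicle the difference of Afg3l2 was 1.37% (95% interval -7.00% to 10.5%), with overlapping groups.

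**Figure D3:**
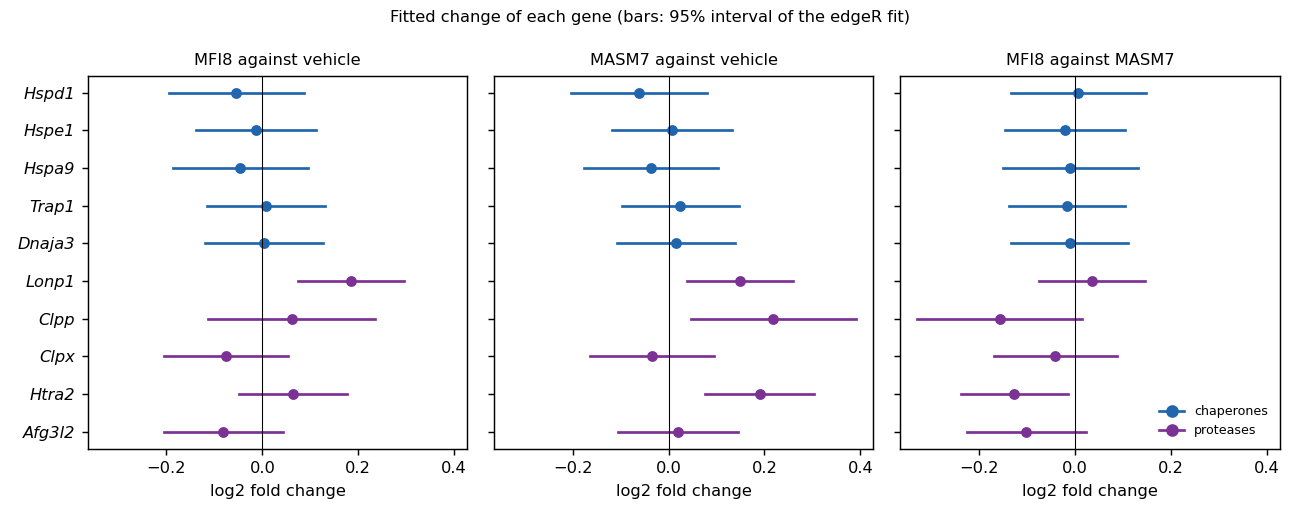
Fitted log2 fold change of each gene in the 3 comparisons, with bars for the 95% interval of the edgeR fit, chaperones in blue and proteases and partners in purple. The intervals of Lonp1 for both compounds, of Clpp and Htra2 for MASM7, and of Htra2 for MFI8 against MASM7 exclude 0 before adjustment, and no chaperone interval does.

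With the replicate block, 1 of the 10 genes was called for MFI8 against vehicle, 2 for MASM7 against vehicle and 0 for MFI8 against MASM7, beside the shares of 5.04%, 3.88% and 3.07% over all genes. Without the block, 1 of 10 had an unadjusted p under 0.05 for MFI8 against vehicle (Lonp1, higher), beside 9.86% of all genes tested, 5.21% in the higher and 4.65% in the lower direction. For MASM7 against vehicle the count was 3 of 10 (Lonp1, Clpp and Htra2, all higher), beside 10.2% of all genes, 5.32% higher and 4.88% lower. For MFI8 against MASM7 it was 1 of 10 (Htra2, lower), beside 7.18% of all genes, 4.23% higher and 2.95% lower. Groups did not overlap for 4 of 10 members in each comparison. For MFI8 against vehicle these were 2 higher (Lonp1 and Htra2) and 2 lower (Clpx and Afg3l2), beside 40.2% of all genes, 20.9% higher and 19.3% lower. For MASM7 against vehicle they were 3 higher (Lonp1, Clpp and Htra2) and 1 lower (Clpx), beside 42.8% of all genes, 21.2% higher and 21.6% lower. For MFI8 against MASM7 they were 1 higher (Lonp1) and 3 lower (Clpp, Htra2 and Afg3l2), beside 39.2% of all genes, 19.6% in each direction. The counts of members without overlap were thus near the background. The shares of all genes with 3 separate groups, or with all 4 treated libraries on 1 side of vehicle, were not computed.

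The median log2 difference of the 10 was -0.0046 for MFI8 against vehicle, 0.017 for MASM7 against vehicle and -0.018 for MFI8 against MASM7, beside medians of 0.0027, 0.00067 and -0.0015 over all genes tested. The chaperones had medians of -0.013, 0.0072 and -0.011 in the same order, and the proteases and partners 0.062, 0.15 and -0.10. In the most GC-rich of 5 bins of all genes, which holds Lonp1, Clpp and Htra2, the medians were 0.081, 0.12 and -0.034.

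The direct comparison of MFI8 with MASM7 left the chaperones within narrow limits. The fitted log2 differences were 0.0073 for Hspd1 (95% interval -8.85% to 10.8%), -0.020 for Hspe1 (95% interval -9.63% to 7.57%) and -0.0092 for Hspa9 (95% interval -9.83% to 9.497%). Trap1 and Dnaja3 gave -0.016 and -0.011. Groups did not overlap for Lonp1, which was higher with MFI8 (log2 difference 0.036, 95% interval -5.04% to 10.6%), or for Clpp, Htra2 and Afg3l2, which were lower with MFI8. No member passed the adjusted threshold, the lowest adjusted p being 0.650 for Htra2 by edgeR, and none did with the replicate block. With the offsets and the block Afg3l2 did (-0.11, adjusted p = 0.0411 by edgeR), the 1 call of 10 beside 7.12% of all genes.

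The differences against vehicle tended to be higher for members with GC-rich transcripts, with Afg3l2 for MFI8 as an exception. Clpp (57.8% GC), Lonp1 (57.3%) and Htra2 (57.1%), the 3 genes with an unadjusted p under 0.05 for MASM7, are the 3 most GC-rich of the 10, and Clpx (44.6%), Hspa9 (45.9%) and Hspd1 (46.8%) the least. The trend was present across all genes. In 5 bins of near equal size by GC content, from poorest to richest, the median log2 difference went from -0.070 to 0.081 for MFI8 against vehicle, from -0.099 to 0.12 for MASM7 against vehicle, and from 0.030 to -0.034 for MFI8 against MASM7. The richest bin began at 55.7% GC and held all 3 genes.

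When each library was given offsets for GC content and transcript length, an alternative chosen after seeing the data, the log2 differences of these genes were lower. Lonp1 gave 0.095 for MFI8 (adjusted p = 0.641 by edgeR) and 0.053 for MASM7 (adjusted p = 0.940 by edgeR), against 0.18 and 0.15 without offsets. For MASM7, Clpp gave 0.14 and Htra2 0.091 (adjusted p = 0.905 by edgeR for each), against 0.22 and 0.19. Htra2 with MFI8 gave -0.0033 in place of 0.064. Afg3l2, at 52.4% GC, moved the other way for MFI8, from -0.081 to -0.13. With the offsets and the replicate block together, Lonp1 for MFI8 and Clpp and Htra2 for MASM7 no longer passed the threshold (adjusted p = 0.110, 0.224 and 0.228 by edgeR). In that fit Afg3l2 was called lower with MFI8 against vehicle (-0.13, adjusted p = 0.035 by edgeR) and against MASM7 (-0.11, adjusted p = 0.0411 by edgeR), and no other member was called, beside 4.73%, 1.02% and 7.12% of all genes for MFI8 against vehicle, MASM7 against vehicle and MFI8 against MASM7.

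**Figure D4:**
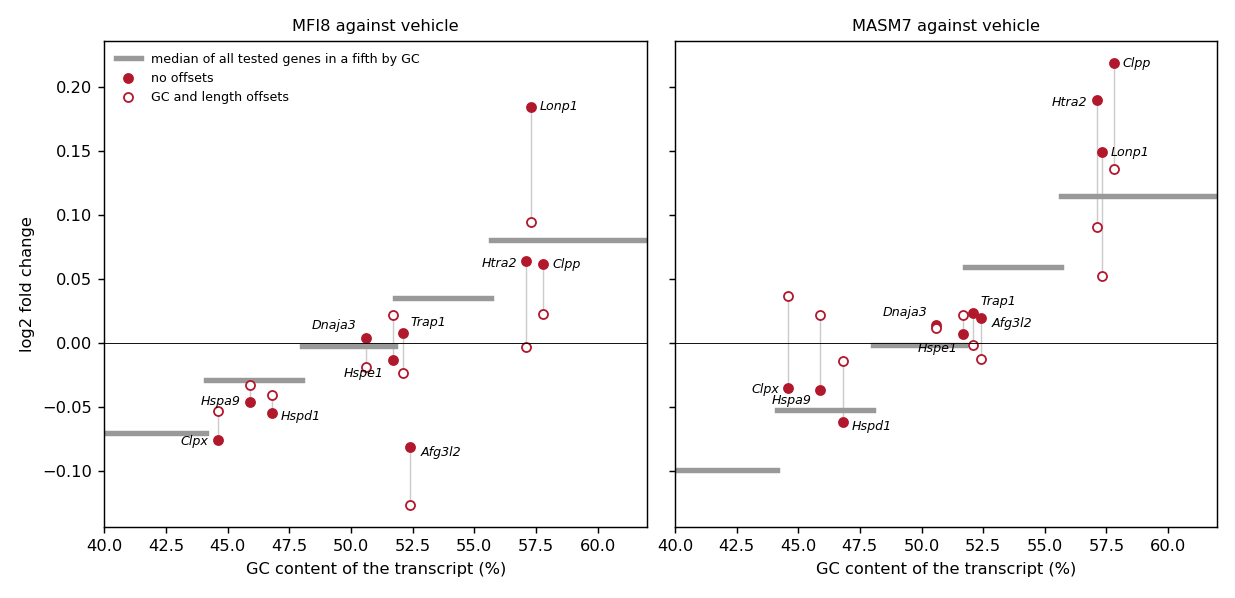
Fitted log2 fold change of each gene against the GC content of its transcript, for MFI8 and MASM7 against vehicle, without offsets (filled) and with GC and length offsets (open), beside the median of all tested genes in each of 5 GC bins (grey bars). Clpp, Lonp1 and Htra2 lie in the richest bin, whose medians were 0.081 and 0.12, and their open points are lower than the filled ones.

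Genes upstream in the response were examined as a list of 11 factors that signal to the nucleus, all of which were tested. For MFI8 against vehicle 3 of 11 had an unadjusted p under 0.05, all higher, beside 5.21% of all genes tested in that direction. These were the transcription factors of the integrated stress response that have been tied to the mitochondrial response. Ddit3 (CHOP) was at 12.1 and 11.2 CPM with vehicle, 13.9 and 14.1 after MASM7 and 17.5 and 21.3 after MFI8. The 3 groups did not overlap, and its log2 difference for MFI8 against vehicle was 0.74 (SE 0.116, unadjusted p = 8.83e-05, adjusted p = 0.0924 by edgeR), above that of any of the 10 members. Atf4 was at 415 and 436 CPM with vehicle, 441 and 491 after MASM7 and 478 and 510.5 after MFI8, a log2 difference of 0.22 for MFI8 (adjusted p = 0.361 by edgeR). Atf5 was at 60.8 and 62.7 CPM with vehicle, 65.4 and 74.3 after MASM7 and 67.3 and 77.7 after MFI8 (log2 difference 0.23, adjusted p = 0.425 by edgeR). With the replicate block all 3 passed the threshold for MFI8 against vehicle, with adjusted p-values of 2.19e-05 for Ddit3, 0.00279 for Atf4 and 0.0164 for Atf5 by edgeR, and no other gene of the 11 did, beside 5.04% of all genes called in that fit. With the offsets for GC content and length added to the block, Ddit3 (0.73, adjusted p = 0.0002 by edgeR) and Atf4 (0.18, adjusted p = 0.000912 by edgeR) remained past it and Atf5 (0.14, adjusted p = 0.114 by edgeR) did not, so that 2 of 11 were called beside 4.73% of all genes.

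With MASM7 the list had 1 gene of 11 with an unadjusted p under 0.05, beside 10.2% of all genes. This was the heat shock transcription factor Hsf1 (log2 difference 0.17, adjusted p = 0.473 by edgeR, or 0.043 with the replicate block). It was the 1 call of 11 with the block, beside 3.88% of all genes. With the offsets and the block Hsf1 gave 0.069 (adjusted p = 0.363 by edgeR), and 0 of the 11 were called for MASM7, beside 1.02% of all genes. Ddit3 gave 0.26 (adjusted p = 0.489 by edgeR) and Atf5 0.18 (adjusted p = 0.501 by edgeR). For MFI8 against MASM7, Ddit3 gave 0.47 (adjusted p = 0.370 by edgeR, or 0.00334 with the replicate block). It was the 1 call of 11 with the block, beside 3.07% of all genes. With the offsets and the block 2 of 11 were called, Ddit3 and Atf4 at 0.51 and 0.11, beside 7.12% of all genes. Without the block Eif2ak1, the eIF2α kinase that relays mitochondrial stress, gave -0.090 and Hsf1 -0.086. The medians of the list were 0.087 for MFI8 and 0.12 for MASM7 against vehicle.

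The cofactors of the chaperones, 7 genes, had no member with an unadjusted p under 0.05 for MFI8 or MASM7 against vehicle, beside 9.86% and 10.2% of all genes. Grpel1, the nucleotide exchange factor of mitochondrial HSP70, gave -0.074 for MFI8 and 0.095 for MASM7, and -0.17 for MFI8 against MASM7 (unadjusted p = 0.0127, adjusted p = 0.584 by edgeR, or 0.0483 with the replicate block and 0.00232 with the offsets and the block). In each of the last 2 fits it was the 1 call of 7, beside 3.07% and 7.12% of all genes. Clpb, a disaggregase of the intermembrane space, gave 0.077 and 0.11 against vehicle, and Dnajc19, a J-domain protein of the inner membrane, 0.099 and 0.15. Grpel2, a paralog of Grpel1, gave -0.075 and Dnajc19 -0.047 for MFI8 against MASM7, with overlapping groups for both. Of the 13 other mitochondrial proteases and peptidases, 3 had an unadjusted p under 0.05 for MFI8 and 2 for MASM7, beside 9.86% and 10.2% of all genes. Yme1l1, the i-AAA protease of the inner membrane, was at 224 and 232 CPM with vehicle, 213 and 199 after MASM7 and 196 and 210.1 after MFI8. All 4 treated libraries were lower, with log2 differences of -0.17 for MFI8 (adjusted p = 0.412 by edgeR, or 0.0352 with the replicate block) and -0.15 for MASM7 (adjusted p = 0.477 by edgeR). Yme1l1 was the 1 call of 13 for MFI8 against vehicle with the block, beside 5.04% of all genes. With the offsets and the block Yme1l1 gave -0.092 for MFI8 (adjusted p = 0.115 by edgeR) and 0.00074 for MASM7. None of the 13 was then called against vehicle, beside 4.73% and 1.02% of all genes for MFI8 and MASM7. Lactb, a serine protease of the intermembrane space, was lower too (-0.18 and -0.20), and Afg1l, an AAA ATPase, was higher with MFI8 (0.36 against vehicle and 0.34 against MASM7). Immp1l, a subunit of the inner membrane peptidase, gave -0.15 for MASM7 against vehicle (adjusted p = 0.606 by edgeR), or 0.00072 with the offsets and the block. The rhomboid protease gene Parl gave, for MFI8 against MASM7, -0.13 (adjusted p = 0.690 by edgeR) and Spg7, the partner of Afg3l2 in the m-AAA protease, 0.082 (adjusted p = 0.817 by edgeR).

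Of 10 other reported targets of the response, none had an unadjusted p under 0.05 for MFI8 against vehicle, beside 9.86% of all genes. For MASM7 4 of 10 did, all higher, beside 10.2% of all genes in either direction and 5.32% in the higher one. The lowest p for MFI8 was that of Yars2, the mitochondrial tyrosyl-tRNA synthetase (-0.13, unadjusted p = 0.104, adjusted p = 0.584 by edgeR), followed by Nol6 (0.081) and Timm17a (-0.069). The 4 with MASM7 were Nol6, a nucleolar protein (log2 difference 0.18, adjusted p = 0.466 by edgeR, or 0.0182 with the replicate block), Phb, a prohibitin of the inner membrane (0.18, adjusted p = 0.477 by edgeR), Txn2, the mitochondrial thioredoxin (0.13, adjusted p = 0.479 by edgeR), and Phb2, the partner of Phb. Phb was at 176 and 160.2 CPM with vehicle, 180.4 and 199 after MASM7 and 164 and 176 after MFI8, so that the MASM7 libraries were the highest and MFI8 overlapped vehicle. Nol6 was the 1 call of 10 for MASM7 with the block, beside 3.88% of all genes. With the offsets and the replicate block, Nol6 gave 0.098 (adjusted p = 0.120 by edgeR), Phb 0.098, Txn2 0.082 and Phb2 0.037 for MASM7 against vehicle. None of the 10 was called there, beside 1.02% of all genes. For MFI8 against MASM7, Phb gave -0.16, Phb2 -0.13 and the mitochondrial ribosomal protein gene Mrpl38 -0.17. With the offsets and the block, 3 of 10 were called lower for MFI8 against MASM7 (Timm17a, a subunit of the import machinery, -0.21, Nol6 -0.11 and Phb -0.13), beside 7.12% of all genes. The medians of this list were -0.00055 for MFI8 and 0.12 for MASM7 against vehicle.

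The cytosolic and ER relatives of the chaperones, 19 genes, served to compare the mitochondrial chaperones with their counterparts elsewhere in the cell. Their medians were -0.027 for MFI8 and -0.013 for MASM7 against vehicle. Hspa1a, an inducible cytosolic HSP70, had the highest difference of the list for MFI8 (1.94, adjusted p = 0.412 by edgeR), which came from 1 library. It was at 1.67 and 2.94 CPM with vehicle, 1.79 and 2.10 after MASM7 and 2.31 and 15.1 after MFI8. The near-identical Hspa1b behaved alike, at 60.9 and 72.7 CPM with vehicle and 60.5 and 135 with MFI8, and reads of the pair cannot be told apart with certainty. With the replicate block Hspa1a (1.81, adjusted p = 0.000141 by edgeR), Hspa1b (0.49, adjusted p = 0.00412 by edgeR) and Dnajb1, a cytosolic J-domain protein (0.21, adjusted p = 0.0382 by edgeR), were called for MFI8 against vehicle, 3 of 19 beside 5.04% of all genes. Dnajb1 was at 93.3 and 107.8 CPM with vehicle, 93.0 and 110.5 after MASM7 and 95.3 and 139 after MFI8, so that, as for Hspa1a and Hspa1b, the second MFI8 library was the one well above the rest. Hspa1a gave 2.19 for MFI8 against MASM7 without the block (adjusted p = 0.544 by edgeR). Hspa1a (2.01, adjusted p = 4.37e-05 by edgeR) and Hspa1b (0.46, adjusted p = 0.00856 by edgeR) were called with it, 2 of 19 beside 3.07% of all genes. With the offsets and the block, Hspa1a and Hspa1b were called in both comparisons with MFI8, and Dnajb1 was not called against vehicle (0.17, adjusted p = 0.107 by edgeR). In that fit the cytosolic Hspa4 was called lower for MFI8 against vehicle (-0.11, adjusted p = 0.0419 by edgeR), and Hspa5, the HSP70 of the ER, higher for MASM7 against vehicle (0.16, adjusted p = 0.00965 by edgeR). The calls against vehicle were 2 higher and 1 lower of 19 for MFI8, beside 4.73% of all genes, and 1 higher for MASM7, beside 1.02%. For MFI8 against MASM7 it called 3 of 19 higher (Hspa1a, Hspa1b and Dnajb1) and 6 lower (Hspa5, Hspa4, Hsp90b1, Dnaja2, Cct3 and Cct8), beside 7.12% of all genes. Hspd1 and Hspe1 were at 1099.97 and 268 CPM in that second MFI8 library, within the range of the vehicle libraries. Whether the heat shock elements between their start sites were bound in any library was not tested. Tcp1, a subunit of the cytosolic chaperonin, was lower in all 4 treated libraries than in both vehicle libraries, with differences of -0.10 for MFI8 (adjusted p = 0.495 by edgeR) and -0.076 for MASM7 (adjusted p = 0.579 by edgeR). Without the block, Hspa5 gave 0.091 and Dnaja2 -0.051 for MASM7 against vehicle, and Cct3 -0.094 for MFI8 against MASM7.

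**Figure D5:**
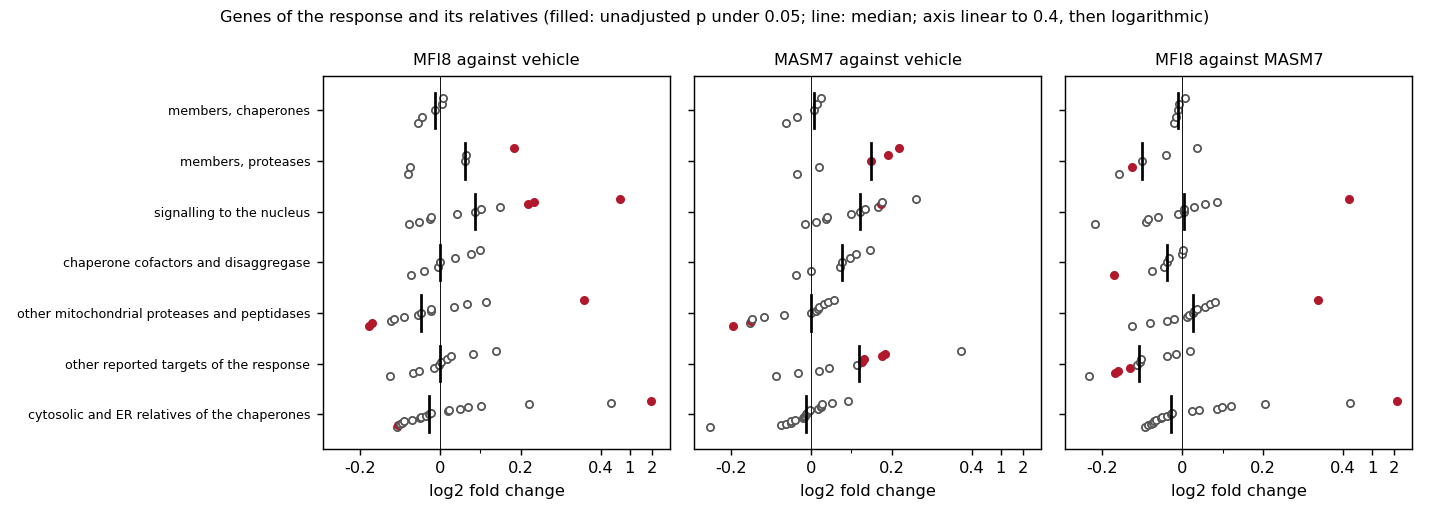
Log2 fold change of every tested gene of the 2 member lists and of the 5 related lists in the 3 comparisons, with vertical lines at the medians, filled points for an unadjusted p under 0.05, and an axis that is linear up to 0.4 and logarithmic beyond. Ddit3 at 0.74 and Hspa1a at 1.94 are the points farthest to the right for MFI8 against vehicle, and the 5 chaperones stay between -0.062 and 0.024 in both comparisons with vehicle.

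Across the 6 libraries the members did not vary as 1 block. Of the 45 pairs of members, 27 had a Pearson r of log2 CPM above 0, with a median of 0.21 and a range from -0.959 to 0.982. The values are a description over 6 libraries that share 3 treatments and the same preparation. Hspd1 and Hspa9 formed the pair with the highest r, 0.982, and Trap1 and Hspa9 or Hspd1 the pairs with the lowest. Hspd1 with Hspe1 gave 0.761 and Clpp with Htra2 0.852, whereas Clpp with Clpx, the subunits of 1 complex, gave -0.199.

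For the 5 members whose libraries did not overlap between at least 1 pair of groups, the genes with the most similar profile were taken as those with the highest Pearson r of log2 CPM over the 6 libraries among the 14290 genes tested. They were Qsox1 (r = 0.995) and Gtf3c5 (0.993) for Lonp1, Copg1 (0.994) and Mrpl23 (0.993) for Clpp, Tmed10 (0.992) and Ppfibp1 (0.987) for Clpx, Cnot3 (0.998) and Entpd7 (0.997) for Htra2, and Tceal8 (0.990) and Atic (0.989) for Afg3l2. No member appeared among them. Values of this size were also found for members whose groups overlapped in all 3 comparisons, such as Dnaja3 (0.991 with Nmnat1) and Trap1 (0.998 with Colgalt1).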

How the data were processed

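Polyadenylated RNA of 6 libraries from MEFs, 2 per group by the treatment label, was sequenced. Trimmomatic was used by the authors for trimming, STAR for alignment to mm10 (GRCm38) and featureCounts for counting on exons. They deposited raw counts, whole numbers per gene. The deposited normalized values, a signal on the count scale, equal the raw counts divided by DESeq2 size factors (0.855 to 1.15), and were used only for that check. The authors' TPM values sum to the same total in every library, and the gene lengths behind them are not given in the sources used here.

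Raw counts were fitted in edgeR 4.0.16 (R 4.3.3) with TMM, filterByExpr, 1 coefficient per group and all 6 libraries, and tested by the two-sided quasi-likelihood F test with Benjamini-Hochberg adjustment over 14290 genes at 0.05. CPM used TMM library sizes, and log2 CPM a prior count of 2. Standard errors were the fold change divided by the root of F. The replicate numbers 1 and 2 in the titles are shared by the groups, and no source used here says what they mark. Equally numbered libraries deviated together between each pair of groups (r = 0.188, 0.152 and 0.165 over all genes tested, and 0.508, 0.621 and 0.538 over the more highly expressed part), so the fit with the number as a block is given beside results whose call it changes. With 2 libraries against 2, an exact permutation test cannot go below p = 0.333. On counts simulated for MFI8 against vehicle over 14070 genes, with 200 changed 2-fold, all with this size were recovered (100%) and 4.76% of calls were false. Every gene was drawn with the common dispersion of 0.0039, without a replicate effect or a GC trend. The changed genes were taken only from those above a minimum mean count. The recovery thus applies to that spread, and genes with a wider spread in the data can be missed at this size. Smaller changes were not simulated. Alternatives used DESeq2 1.42.0 and limma 3.58.1. Coordinates and GC content came from GENCODE vM21, and start sites and windows from RefSeq (GRCm38.p6).

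The members, the related lists and the motifs were chosen with earlier results of these data known. From each related list the 3 genes with the lowest p per comparison were named. Phb2 for MASM7, Hspa1b, Dnajb1, the genes of the related lists called only in the fit with offsets and block, and the overlapping Aup1, Loxl3, Coro7 and Vasn were named after their values were seen.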

Additional observations from a re-analysis of the deposited data

How the results depend on the processing

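Under 17 alternatives to each result, Lonp1 and Htra2 kept their sign in all of them for MASM7 against vehicle, as did Clpp. Lonp1 (higher) and Clpx and Afg3l2 (lower) did so for MFI8 against vehicle, and Lonp1 (higher) and Clpp, Htra2 and Afg3l2 (lower) for MFI8 against MASM7. Adjusted p-values ranged from 0.0144 to 0.808 for Lonp1 with MFI8, from 0.0437 to 1 for Clpp and from 0.021 to 1 for Htra2 with MASM7, and from 0.0564 to 1 for Lonp1 with MASM7. The count of genes past the adjusted threshold, 0 in each comparison, became 256, 127 and 168 without a filter beyond 1 count (MFI8 against vehicle, MASM7 against vehicle and MFI8 against MASM7, in this order throughout), 49, 2 and 29 with DESeq2, and 0, 1 and 2 with only the compared groups fitted. No member was among them. Leaving out 1 library gave 0 to 26, 0 to 2 and 0 to 24 genes, the highest without MFI8 replicate 1 for the comparisons with MFI8 (6 for MFI8 against vehicle without MFI8 replicate 2) and without MASM7 replicate 2 for MASM7 against vehicle. The members' median ranged from -0.038 to 0.016, from -0.012 to 0.046 and from -0.061 to 0.0085 when 1 library was left out, and was 0.025 for MFI8 against MASM7 with limma on either TPM scale. The causes were not tested. Every member had at least 1242 counts in each library.

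With the replicate block the counts were 720, 554 and 439, and the members past the threshold were Lonp1 for MFI8 (0.18, adjusted p = 0.0144 by edgeR) and Clpp (0.22, adjusted p = 0.0437 by edgeR) and Htra2 (0.19, adjusted p = 0.021 by edgeR) for MASM7. Without the offsets, the block changed no other call of a member. With the GC and length offsets and the block the counts were 662, 143 and 996. In that fit Lonp1, Clpp and Htra2 were not called. Afg3l2 was called for MFI8 against vehicle (-0.13, adjusted p = 0.035 by edgeR) and against MASM7 (-0.11, adjusted p = 0.0411 by edgeR), and with the offsets alone no member was.

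Signs of log2 differences near 0 turned as follows. With library size alone, Hspe1 gave -0.0036 for MASM7, and for MFI8 against MASM7 Hspe1 gave 0.00092, Hspa9 0.012, Trap1 0.0053 and Dnaja3 0.011. Hspd1 gave -0.0047 for MFI8 against MASM7 without a filter, and Dnaja3 -0.0021 for MFI8 with at least 10 counts in every library. With limma on log2(TPM + 1) and log2(TPM + 0.1), Hspe1 gave 0.013 for MFI8 and -0.010 for MASM7 and Dnaja3 -0.0022 for MASM7, and for MFI8 against MASM7 Hspe1 gave 0.023, Hspa9 0.033, Trap1 0.027, Dnaja3 0.032 and Clpx 0.0011. With GC and length offsets, with the block in parentheses, Hspe1 gave 0.022 (0.022), Trap1 -0.023 (-0.022), Dnaja3 -0.018 (-0.017) and Htra2 -0.0033 (-0.0035) for MFI8, Hspa9 0.022 (0.023), Trap1 -0.0013 (-0.0011), Clpx 0.037 (0.037) and Afg3l2 -0.012 (-0.012) for MASM7, and Hspd1 -0.026 (-0.027) for MFI8 against MASM7. With 1 library left out, the sign turned in at least 1 case for MFI8 against vehicle in Hspd1 (-0.12 to 0.020), Hspe1 (-0.042 to 0.017), Hspa9 (-0.12 to 0.033), Trap1 (-0.036 to 0.055), Dnaja3 (-0.033 to 0.041) and Clpp (-0.048 to 0.18). For MASM7 against vehicle it did so in Hspd1 (-0.13 to 0.013), Hspe1 (-0.048 to 0.061), Hspa9 (-0.11 to 0.042), Trap1 (-0.020 to 0.069), Dnaja3 (-0.013 to 0.043) and Afg3l2 (-0.023 to 0.064). For MFI8 against MASM7 it did so in Hspd1 (-0.052 to 0.067), Hspe1 (-0.073 to 0.035), Hspa9 (-0.070 to 0.052), Trap1 (-0.044 to 0.014), Dnaja3 (-0.048 to 0.027) and Clpx (-0.088 to 0.0062).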
